A study of Mus musculus with 5 samples.

Results

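Ligands of the transforming growth factor β (TGF-β) and bone morphogenetic protein (BMP) families and the Id genes, a set of transcriptional regulators that BMP signals induce, were read in mouse thoracic aorta. The members were the TGF-β ligands Tgfb1, Tgfb2 and Tgfb3, the BMP ligands Bmp2, Bmp4 and Bmp6, and Id1, Id2, Id3 and Id4. They were taken by symbol from the annotation of Affymetrix's Mouse Genome 430 2.0 platform, and every probe set that it assigns to a single one of these genes was kept. This gave 18 of 45037 probe sets and 10 of 18194 named genes. A probe set is a group of short probes read together for one transcript, and 17 of the 18 lay at or above the median level of all probe sets.

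Mice here called P467L were male C57BL/6 transgenics with the dominant negative P467L mutant of human PPARγ, a nuclear receptor that regulates lipid metabolism, driven by the promoter of smooth muscle myosin heavy chain. Their controls were male non-transgenic littermates, C57BL/6 as well. There were 3 P467L and 2 non-transgenic arrays, each of RNA pooled from 6 to 8 aortas, and the submitters describe each pool as an independent biological replicate. The age of the mice was not given in the sources used here. The promoter limits the transgene to smooth muscle, while each pool also holds the endothelium and other cells of the vessel wall.

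TGF-β ligands are secreted in a latent complex that is held in the matrix, and once freed they bind a pair of receptor kinases that phosphorylate Smad2 and Smad3. BMP ligands act through related receptors on Smad1, Smad5 and Smad9, and Id genes are among the best known transcripts switched on by these Smads. Id proteins have a helix-loop-helix domain but no DNA-binding region, and they hold E proteins and their partners off DNA. In the vessel wall both families act on smooth muscle phenotype, matrix production and the endothelium.

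Values are log2 signals, so a difference of 1 is a change by a factor of 2. Levels of different probe sets are not comparable with each other. The median level of an array was 6.17 to 6.23 in P467L and 6.25 in both non-transgenic arrays. P467L replicate 1 stood apart: its correlation with the other arrays was 0.985 to 0.991, against 0.995 to 0.997 for all pairs without it. The nuclear RNA Malat1 measured 8.03 there, 9.69 and 9.87 in the other P467L arrays and 9.45 in both non-transgenic arrays. Non-transgenic replicate 2 was high in stomach transcripts, the gastric protein Gkn2 measuring 10.23, 10.22 and 10.02 in P467L against 8.79 and 13.32 in non-transgenic arrays. All 6 smooth muscle markers lay above the median level, Acta2 at a mean of 14.8 in both groups, and 9 of 10 endothelial markers did so.

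Bmp2, Tgfb1 and 3 of the Id genes measured higher in P467L aortas, and Bmp6 and Tgfb2 measured lower, each by 0.35 to 0.69 log2 units in its brightest probe set, but no member passed the test. The limma fit over all arrays called none of the array's 45037 probe sets (0%) at the 0.05 threshold for adjusted p, and 0 of the 18. Among the members the lowest adjusted p was 0.199, for Id4. At an unadjusted p of 0.05, 7 of the 18 probe sets were higher and 5 lower, where 4.71% of all probe sets were higher and 2.74% lower. After median centring of the arrays the members' counts were again 7 and 5, while the share of higher among all such probe sets was 77.1% against 63.2% without centring. All P467L arrays lay above both non-transgenic arrays in 8 of the 18, and below both in 6, against 11.2% and 7.61% of all probe sets. The genes were chosen with earlier results of these data known, so these counts are a description. The exact permutation test of 3 arrays against 2 has 10 splits, so its one-sided p, doubled, cannot go below 0.2.

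**Figure D1:**
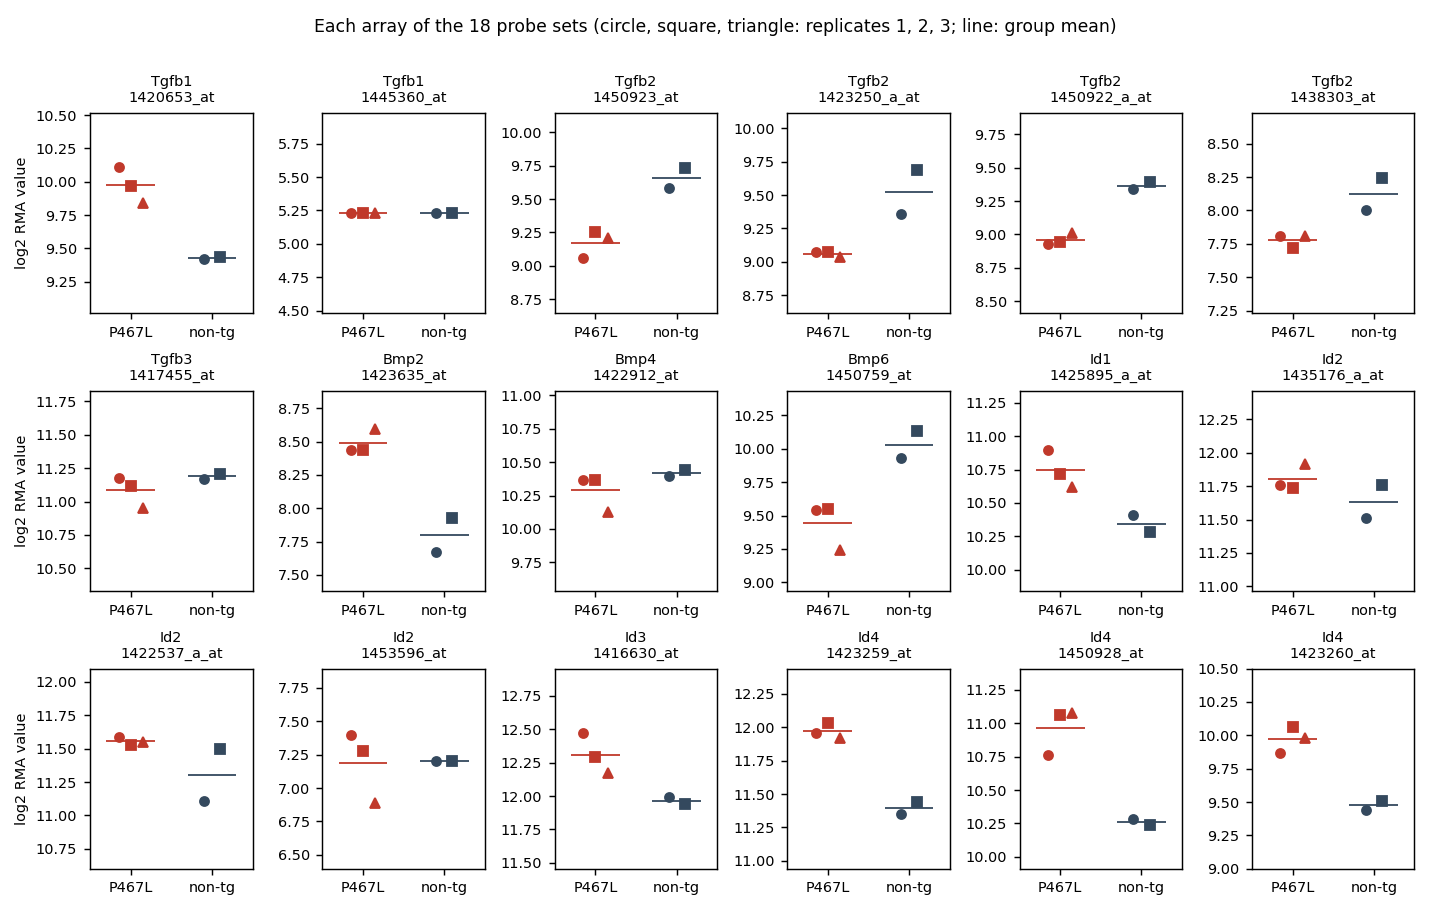
Log2 RMA value (vertical axis, each panel spanning 1.5 log2 units) of every array for each of the 18 probe sets, P467L on the left and non-transgenic (non-tg) on the right, with symbols for the replicates and a line at each group mean. The groups are apart for the brighter Tgfb1 probe set, Tgfb2, Bmp2, Bmp6, Id1, Id3 and Id4, and overlap for Tgfb3 and the brightest Id2 probe set.

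Tgfb1, the most widely expressed TGF-β isoform and an inducer of matrix synthesis, measured 10.11, 9.97 and 9.84 in the P467L arrays, against 9.42 and 9.44 in the non-transgenic arrays by probe set 1420653_at. Every P467L array was higher, with a gap of 0.40 between the groups. The difference was 0.54 (SE 0.09, 95% interval 0.30 to 0.79), a 1.46-fold level, with an adjusted p of 0.36 by limma. A second, dim probe set, 1445360_at, gave 5.23 on all 5 arrays, so it holds no information on the groups. In RNA from whole tissue a change in the number of cells of a type and a change in RNA per cell cannot be told apart. All 8 macrophage markers also measured higher in P467L, with array medians of 0.41, 0.05 and 0.23 in P467L relative to the non-transgenic mean, against -0.01 and 0.01 in non-transgenic arrays. The log2 of their summed signals was 12.74 to 13.09 in P467L and 12.71 to 12.72 in non-transgenic arrays. The brightest markers weigh most in such a sum. All 8 macrophage markers lay above the median level. Tgfb1 was highest in the same array as the macrophage list, P467L replicate 1; their part in the Tgfb1 value was not tested. Without that array the Tgfb1 difference was 0.48.

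Tgfb2, the isoform best known for its role in heart and vessel development, had 4 probe sets, and all of them were lower in P467L aortas. The brightest, 1450923_at, measured 9.06, 9.25 and 9.21 in P467L arrays, against 9.58 and 9.73 in non-transgenic arrays, a difference of -0.48 (SE 0.08, interval -0.71 to -0.25, adjusted p of 0.377 by limma). Probe set 1450922_a_at gave 8.93, 8.94 and 9.01 in P467L, against 9.34 and 9.39 in non-transgenic aortas. Its difference was -0.41 (SE 0.04), the narrowest interval of the 4 Tgfb2 probe sets, from -0.53 to -0.28. The groups did not overlap in either probe set.

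The remaining Tgfb2 probe sets depended more on which non-transgenic array was used. Probe set 1423250_a_at measured 9.07, 9.07 and 9.04 in P467L, against 9.36 and 9.69 in non-transgenic arrays. The difference was -0.47, and it was -0.30 without non-transgenic replicate 2 and -0.63 without non-transgenic replicate 1. Probe set 1438303_at gave 7.81, 7.72 and 7.81 in P467L and 8.00 and 8.24 in non-transgenic arrays, a difference of -0.34 that was -0.22 without non-transgenic replicate 2. P467L arrays were below both non-transgenic arrays in each case. In all 4 Tgfb2 probe sets the highest array was non-transgenic replicate 2, the one with high stomach transcripts. The part of those transcripts in the Tgfb2 values was not tested. Of the 4, 3 share the accession BF144658, so they are readings of one sequence and not separate pieces of evidence.

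Tgfb3, the third isoform, measured 11.18, 11.12 and 10.95 in P467L, against 11.17 and 11.21 in non-transgenic arrays. The groups overlapped, the difference was -0.11 and the interval ran from -0.33 to 0.12.

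Bmp2, an osteogenic and vascular BMP, had the largest difference of the ligands. It measured 8.44, 8.44 and 8.59 in P467L arrays, against 7.67 and 7.93 in non-transgenic arrays. The gap of 0.51 between the groups was wider than the 0.26 between the non-transgenic arrays. The difference was 0.69 (SE 0.10, interval 0.41 to 0.97), or 1.61-fold, with an adjusted p of 0.32 by limma.

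Bmp6, a ligand of endothelial cells best known for iron control in the liver, ran the other way. It measured 9.54, 9.55 and 9.24 in P467L, against 9.93 and 10.13 in non-transgenic arrays. Every P467L array was lower, and the difference was -0.59 (SE 0.13, interval -0.94 to -0.23, adjusted p of 0.466 by limma), a 0.67-fold level. The difference was -0.49 without non-transgenic replicate 2, the highest array, and -0.69 without non-transgenic replicate 1. Bmp4, another ligand of the vessel wall, measured 10.37, 10.37 and 10.13 in P467L and 10.40 and 10.44 in non-transgenic arrays. Its groups were 0.03 apart, and the difference of -0.13 had an interval from -0.38 to 0.12. The median difference of 10 endothelial markers was 0.03, from -1.05 for the sialomucin Emcn to 0.73 for the tight junction protein Cldn5. The log2 of their summed signals was 12.91 to 13.02 in P467L and 12.88 to 12.91 in non-transgenic arrays. The part of these markers in the Bmp values was not tested.

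**Figure D2:**
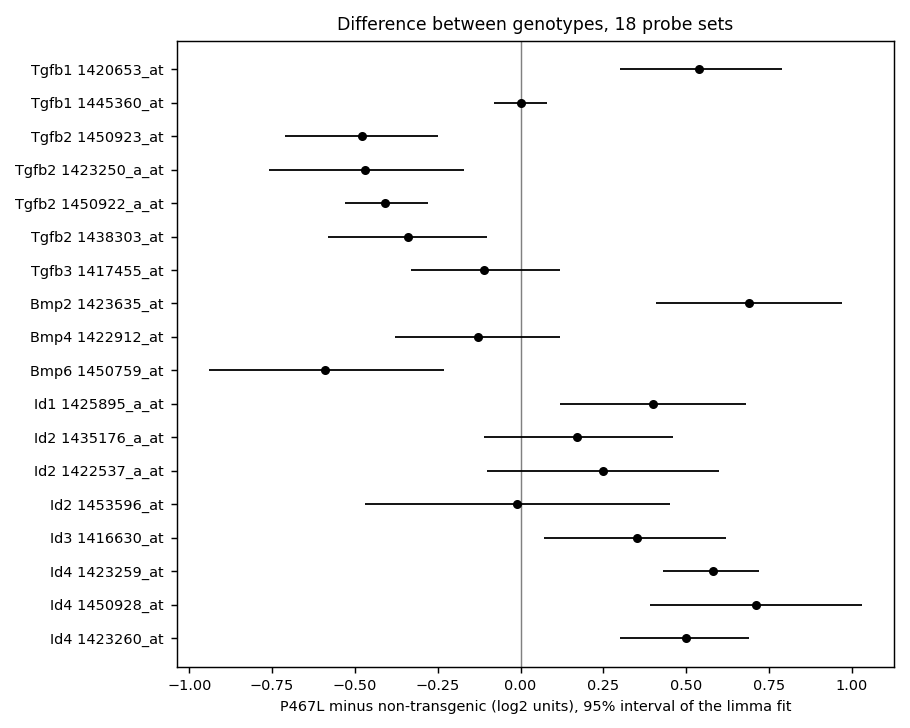
Difference of P467L minus non-transgenic in log2 units (horizontal axis) for each of the 18 probe sets, with the 95% interval of the limma fit. Intervals lie above 0 for the brighter Tgfb1 probe set, Bmp2, Id1, Id3 and Id4, below 0 for Tgfb2 and Bmp6, and span 0 for Tgfb3, Bmp4, Id2 and the dim Tgfb1 probe set.

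Id4, best known from neural and adipocyte development, had the smallest p of the members. It measured 11.96, 12.03 and 11.92 in P467L arrays, against 11.35 and 11.44 in non-transgenic arrays by its brightest probe set, 1423259_at. The P467L arrays were within 0.11 of each other and at least 0.48 above the others. The difference was 0.58 (SE 0.05, interval 0.43 to 0.72), or 1.49-fold, with an adjusted p of 0.199 by limma. Probe set 1450928_at gave 10.76, 11.06 and 11.08 in P467L, against 10.28 and 10.24 in non-transgenic arrays, a difference of 0.71 (SE 0.12). Probe set 1423260_at gave 9.87, 10.06 and 9.98 in P467L, against 9.44 and 9.51 in non-transgenic arrays, a difference of 0.50 (SE 0.07). Groups were apart in all of these, but the probe sets share the accession BB121406 and read one sequence.

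Id1 and Id3, the Id genes of endothelium and smooth muscle that are commonly read as markers of BMP signals, were higher by less. Id1 measured 10.90, 10.72 and 10.62 in P467L, against 10.41 and 10.28 in non-transgenic arrays. Its difference was 0.40 (SE 0.10, interval 0.12 to 0.68, adjusted p of 0.515 by limma). Id3 measured 12.47, 12.29 and 12.17 in P467L, against 11.99 and 11.94 in non-transgenic arrays. Its difference was 0.35 (SE 0.10, interval 0.07 to 0.62, adjusted p of 0.56 by limma). In Id1, Id3 and Tgfb1 the same array, P467L replicate 1, was the highest, and it is the array with the lowest Malat1. Without it the differences were 0.33 for Id1 and 0.27 for Id3, while that of Id4 was 0.58.

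Id2, which also has wide roles in lymphoid cells and fat, was not told apart between the groups. Its brightest probe set, 1435176_a_at, measured 11.76, 11.74 and 11.92 in P467L, against 11.51 and 11.76 in non-transgenic arrays. The difference was 0.17 with an interval from -0.11 to 0.46, and it was 0.05 without non-transgenic replicate 1. Probe set 1422537_a_at gave 11.59, 11.53 and 11.55 in P467L, against 11.11 and 11.50 in non-transgenic arrays, a difference of 0.25 that was 0.06 without non-transgenic replicate 1 and 0.45 without non-transgenic replicate 2. The third Id2 probe set, 1453596_at, measured 7.40, 7.28 and 6.89 in P467L and 7.20 in both non-transgenic arrays, with a difference of -0.01. Of the 8 probe sets of Id genes, 5 were higher at an unadjusted p of 0.05 and 0 lower, where 4.71% of all probe sets were higher and 2.74% lower. Of the 5 higher, 3 were Id4 readings of one sequence. Without P467L replicate 2 there were 4, with p at 0.07 for Id3 by limma. Id1 and Id3 did not pass with either non-transgenic array left out. Their differences were 0.47 and 0.37 without non-transgenic replicate 1, and 0.34 and 0.32 without non-transgenic replicate 2. The interval of Id2 reaches values above the difference of Id3, so a smaller change of Id2 than of the other Id genes was not shown.

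**Figure D3:**
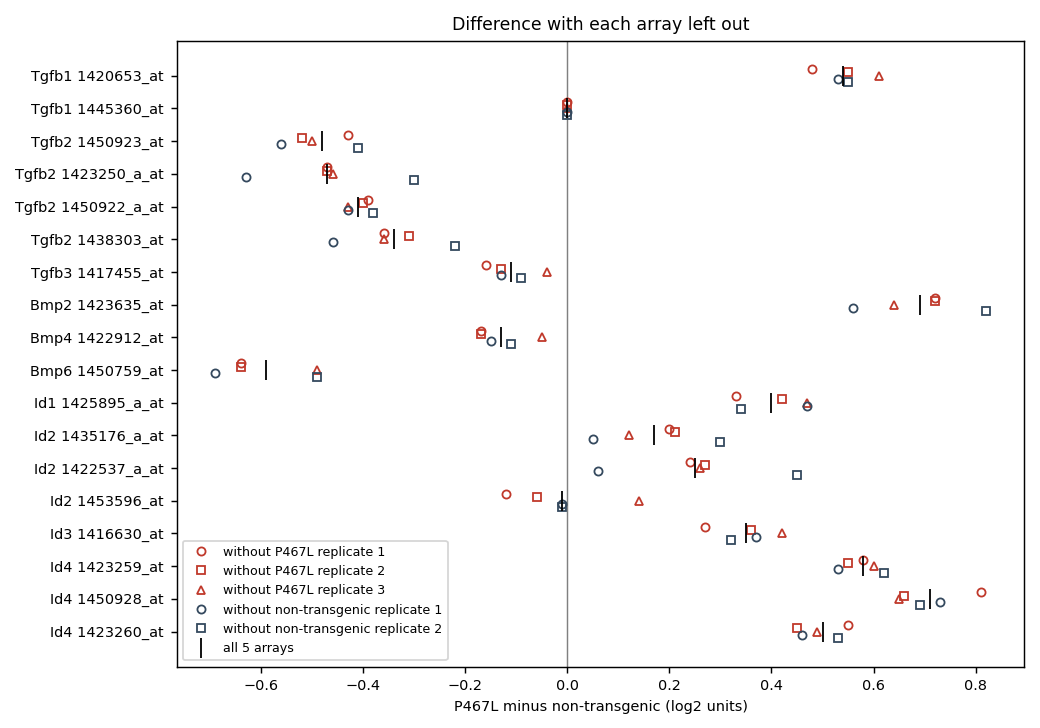
Difference of P467L minus non-transgenic in log2 units (horizontal axis) for each probe set with all 5 arrays (bar) and with each array left out in turn (open symbols, red for P467L and blue for non-transgenic arrays). Every setting kept the side of 0 for Tgfb2, Tgfb3, Bmp2, Bmp4, Bmp6, Id1, Id3, Id4, the brighter Tgfb1 probe set and the 2 brighter Id2 probe sets; the dimmest Id2 probe set, 1453596_at, crossed 0.

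The sequence upstream of 3 Id genes, those with one in the table, is shown. Id3 and Id4 measured higher in P467L aortas and Id2 was not told apart, but a smaller change of Id2 was not shown. Each is the 250 bases before the gene's start in RefSeq, build GRCm38.p6, with the Id2 window at chr12:25096093-25096342, minus strand, the Id3 window at chr4:136143572-136143821, plus strand and the Id4 window at chr13:48260866-48261115, plus strand. Capitals mark AGAC or GTCT, the core that Smad3 and Smad4 bind, and GGCGCC, a GC-rich motif known from BMP-responsive elements of Id genes.
Id2: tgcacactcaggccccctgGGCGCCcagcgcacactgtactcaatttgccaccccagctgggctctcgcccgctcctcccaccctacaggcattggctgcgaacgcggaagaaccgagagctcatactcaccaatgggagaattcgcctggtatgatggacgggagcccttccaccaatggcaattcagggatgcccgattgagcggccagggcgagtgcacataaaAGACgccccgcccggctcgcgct
Id3: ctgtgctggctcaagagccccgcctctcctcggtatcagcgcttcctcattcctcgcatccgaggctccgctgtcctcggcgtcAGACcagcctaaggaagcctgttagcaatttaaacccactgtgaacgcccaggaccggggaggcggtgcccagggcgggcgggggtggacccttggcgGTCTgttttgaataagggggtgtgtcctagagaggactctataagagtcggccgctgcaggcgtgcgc
Id4: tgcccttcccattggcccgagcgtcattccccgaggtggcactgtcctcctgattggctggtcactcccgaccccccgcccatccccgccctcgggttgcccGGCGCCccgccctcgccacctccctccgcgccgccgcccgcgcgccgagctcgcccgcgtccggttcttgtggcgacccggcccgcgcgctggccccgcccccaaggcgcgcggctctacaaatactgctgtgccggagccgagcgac

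Of the 10 genes 7 had an upstream sequence in the table, and Tgfb3, Bmp2 and Id1 did not match. GGCGCC, which reads the same on both strands, occurred once each in the Id2 and Id4 windows, starting at -231 and -148 from the gene's start, with 0 matches in the other members' windows, and in 9.59% of all 32851 windows of the same length. AGAC, on either strand, occurred once in Id2 at -23 and in Id3 at -166 and -68, with 0 matches in Id4. It was found in 82.9% of all windows, so its presence sets no gene apart. The E box CANNTG, the core that E proteins bind, had 0 matches in Id3 and Id4 and 1 in Id2, against 66.2% of all windows. The nuclear receptor half-site AGGTCA, on either strand, had 0 matches in each of the 7 members' windows and was found in 14% of all windows. These motifs overlap nowhere in the printed windows, and a match is letters in a window, not a shown binding site.

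The other genes of the pathway, 71 measured of 79 listed and each read from its brightest probe set, were counted by the same rule. At an unadjusted p of 0.05, 11 were higher and 6 lower, 0 passed over all probe sets, and the median difference was 0.02, equal to the median over all 18194 genes. Of all genes 6.94% were higher and 2.51% lower by the same rule. The pathway's 17 changed with single arrays: there were 18 without P467L replicate 1, 7 without replicate 2 and 11 without replicate 3. The share of all probe sets past that p changed as well, from 7.44% to 10.7%, 4.9% and 9.32%. The pathway's count was also smaller with either non-transgenic array left out.

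**Figure D4:**
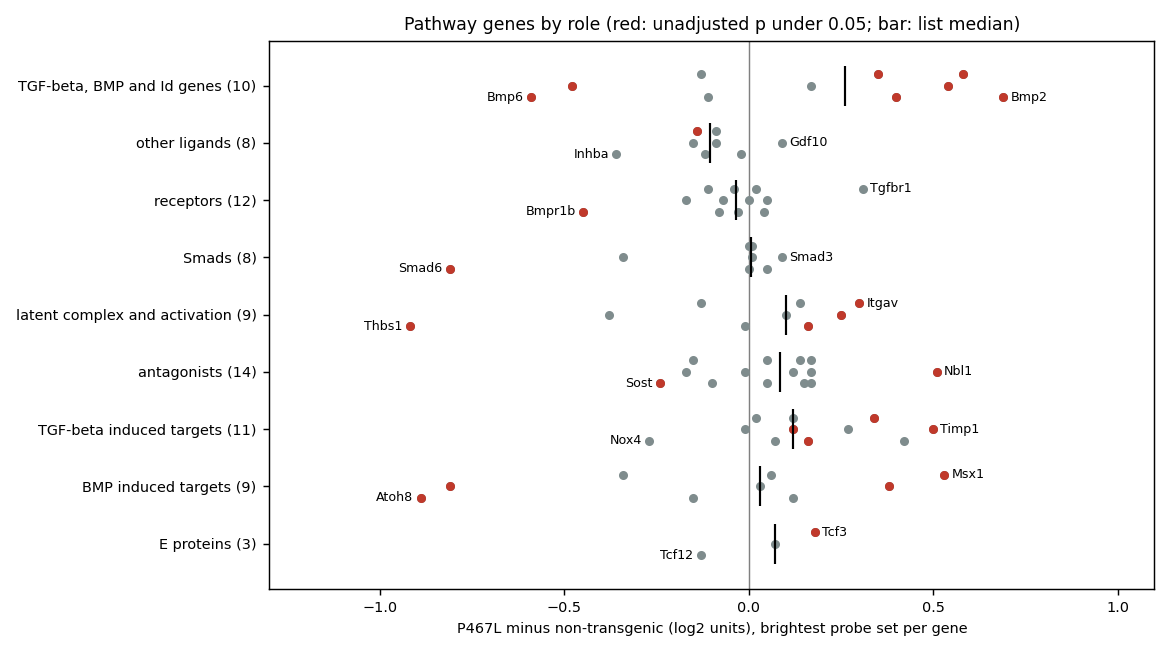
Difference of P467L minus non-transgenic in log2 units (horizontal axis) for each gene's brightest probe set, by role, with the number of measured genes in brackets, red points for an unadjusted p under 0.05 and a bar at each list's median. The receptors have a median of -0.03 and run from -0.45 to 0.31 over 12 genes, and the 10 ligands and Id genes of this report have a median of 0.26 and run from -0.59 to 0.69; the spreads were not compared by a test.

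Other ligands had a median of -0.11 over 8 measured genes, 7 of them negative, and 5 of the 8 lay at or above the median level of all probe sets. At an unadjusted p of 0.05, 0 were higher and 1 lower, where 6.94% of all genes were higher and 2.51% lower. Without P467L replicate 2 or 3 there were 0 lower. Gdf5, a ligand of joint development, measured 4.97 in each P467L array, against 5.15 and 5.06 in non-transgenic arrays, a level below the median of all probe sets. Bmp7 measured 6.45, 6.45 and 6.33 in P467L and 6.66 and 6.45 in non-transgenic arrays, a difference of -0.15. The dimmer Bmp7 probe sets 1432410_a_at and 1418910_at went the other way, at 0.18 and 0.08. Against 6.94% and 2.51% of all genes, receptors had 0 higher and 1 lower of 12 at an unadjusted p of 0.05. That one was the BMP type I receptor Bmpr1b, at 8.37, 8.55 and 8.70 in P467L against 8.91 and 9.07 in non-transgenic arrays, a difference of -0.45 (SE 0.12). Of its other probe sets, both below the median level of all probe sets, 1422872_at gave 0.05 and 1443720_s_at gave -0.30. With P467L replicate 2 or either non-transgenic array left out, 0 receptors were lower. The TGF-β type I receptor Tgfbr1 measured 11.51, 11.80 and 12.00 in P467L and 11.39 and 11.53 in non-transgenic arrays, so the groups overlapped.

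The Smads had a median of 0.01 over 8 genes, and the 2 with the smallest p were the inhibitory ones, which BMP and TGF-β signals induce as feedback. Smad6 measured 9.95, 9.78 and 9.65 in P467L, against 10.19 and 11.01 in non-transgenic arrays. The P467L arrays were lower, but the non-transgenic arrays were 0.82 apart, and the difference of -0.81 (SE 0.28, adjusted p of 0.63 by limma) was -0.40 without non-transgenic replicate 2 and -1.22 without non-transgenic replicate 1. Smad7 measured 9.27, 9.15 and 9.07 in P467L, against 9.33 and 9.68 in non-transgenic arrays, a difference of -0.34 (SE 0.13) that was -0.17 without non-transgenic replicate 2 and -0.52 without non-transgenic replicate 1. In both genes the highest array was non-transgenic replicate 2, the one with high stomach transcripts. It was likewise the highest array for Bmp6, every Tgfb2 probe set, Thbs1 and Atoh8. The log2 of the summed signals of 10 stomach markers was 12.15 to 12.46 in P467L and 11.54 and 15.02 in non-transgenic arrays. The part of stomach transcripts in these values was not tested.

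Of 9 genes of the latent complex and its activation 3 were higher and 1 lower at an unadjusted p of 0.05, against 6.94% and 2.51% of all genes. The 3 became 0 without non-transgenic replicate 1 and 1 when P467L replicate 2 or non-transgenic replicate 2 was left out, while 1 was lower without each array in turn. Thbs1, whose protein thrombospondin-1 can activate latent TGF-β, measured 7.79, 7.76 and 7.87 in P467L, against 8.56 and 8.90 in non-transgenic arrays. The difference was -0.92 (SE 0.12, adjusted p of 0.272 by limma), and a second Thbs1 probe set gave -0.84. Ltbp1, which tethers latent TGF-β to the matrix, measured 12.21, 12.23 and 12.35 in P467L, against 12.02 and 12.01 in non-transgenic arrays, a difference of 0.25 (SE 0.06). Of the dimmer Ltbp1 probe sets, 1447547_at gave 0.26, and 1419786_at measured 6.53, 7.05 and 7.31 in P467L, 1 array below and 2 above both non-transgenic arrays, a difference of -0.03. The groups overlapped in both.

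Antagonists had 1 higher and 1 lower of 14, where 6.94% of all genes were higher and 2.51% lower. Without P467L replicate 1 they had 4 and 1. There 6.09% of all probe sets were higher and 4.59% lower, against 4.71% and 2.74% with all arrays. Leaving out P467L replicate 2 or either non-transgenic array gave 0 higher and 1 lower. The BMP antagonist Nbl1 measured 11.21, 11.01 and 10.80 in P467L, against 10.50 in both non-transgenic arrays, a difference of 0.51 (SE 0.13). Sost, which encodes sclerostin, an inhibitor now known mainly for blocking Wnt co-receptors, measured 13.19, 13.25 and 13.19 in P467L, against 13.43 and 13.46 in non-transgenic arrays, a difference of -0.24 (SE 0.04), and a second Sost probe set gave -0.31. The groups did not overlap in either gene.

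Genes known to be induced by TGF-β had 4 higher and 0 lower of 11, with a median of 0.12, where 6.94% of all genes were higher and 2.51% lower. The 4 became 1 without non-transgenic replicate 1, with a median of 0.06, and 2 when either P467L replicate 2 or 3 was left out. Tgif1, a corepressor of Smads, measured 7.93, 7.93 and 7.81 in P467L, against 7.51 and 7.60 in non-transgenic arrays, a difference of 0.34 (SE 0.06). Col1a1, the α1 chain of type I collagen, measured 13.42, 13.43 and 13.35 in P467L, against 13.22 and 13.27 in non-transgenic arrays. The difference was 0.16 (SE 0.04). A dimmer Col1a1 probe set, 1455494_at, measured 11.48, 11.24 and 10.95 in P467L and 10.89 and 10.96 in non-transgenic arrays, with overlapping groups. Fibroblast markers, Col1a1 among them, had a median of 0.07 over 8 genes with 3 higher and 0 lower. Without non-transgenic replicate 1 that median was 0.01. The log2 of the markers' summed signals was 15.29 to 15.39 in P467L against 15.21 to 15.28 in non-transgenic arrays. The part of fibroblast markers in the values of this list was not tested.

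Genes induced by BMP other than the Id genes had 2 higher and 2 lower of 9 at an unadjusted p of 0.05, against 6.94% and 2.51% of all genes. Leaving out P467L replicates 1, 2 and 3 in turn gave 2 and 1, 1 and 0, and 2 and 0. Leaving out non-transgenic replicate 1 gave 0 higher and 3 lower, and leaving out non-transgenic replicate 2 gave 0 and 0, as did the replicate block. The homeobox gene Msx1 measured 8.19, 7.82 and 7.82 in P467L, against 7.41 and 7.42 in non-transgenic arrays, a difference of 0.53 (SE 0.14), while a dimmer Msx1 probe set gave 0.04. Hes1, a repressor that is also a Notch target, measured 8.85, 8.60 and 8.54 in P467L, against 8.24 and 8.32 in non-transgenic arrays, a difference of 0.38 (SE 0.11). The lower genes were Smad6 and Atoh8, a helix-loop-helix factor of the endothelium, which was named after its values were seen: it measured 9.21, 8.81 and 8.54 in P467L, against 9.50 and 9.99 in non-transgenic arrays. A difference between the higher and the lower genes of this list was not tested.

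Of the 3 E proteins, the partners that Id proteins bind, 1 was higher and 0 lower at an unadjusted p of 0.05, against 6.94% and 2.51% of all genes. Without P467L replicate 1 there were 0 and 0, and without P467L replicate 3 there were 0 and 1. Tcf3, the higher one, measured 8.54, 8.41 and 8.49 in P467L, against 8.34 and 8.26 in non-transgenic arrays, a difference of 0.18 (SE 0.06). Its dimmer probe sets gave 0.24 and 0.15. Tcf4 had overlapping groups and a difference of 0.07. Tcf12 measured 10.57, 10.59 and 10.87 in P467L and 10.75 and 10.87 in non-transgenic arrays, with overlapping groups and a difference of -0.13. A second Tcf12 probe set, 1421908_a_at, measured 9.08, 8.93 and 9.14 in P467L, against 9.30 and 9.26 in non-transgenic arrays. There the groups did not overlap, and the difference was -0.23. The 3 other Tcf12 probe sets, all dimmer, ran from -0.69 to 0.01 with overlapping groups.

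The transcripts whose pattern over the 5 arrays was most like that of Id4 and of Bmp2, the member genes with the smallest p by their brightest probe set, were found among 11586 genes at or above the median level. Likeness was the root mean square distance after each probe set was centred on its own mean. Nearest to Id4 were Rhbdl1 at 0.021, the transcription factor Ets2 at 0.045 and the calcineurin regulator Rcan1 at 0.051 log2 units. Nearest to Bmp2 were placental growth factor (Pgf) at 0.053, Cracdl at 0.070 and the small Maf protein Maff at 0.072. Over 5 arrays in 2 groups many transcripts can share a pattern, so this is a description of these arrays.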

How the data were processed

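RNA from pooled thoracic aortas was hybridised to 5 arrays, 3 P467L and 2 non-transgenic, grouped by the labels' titles. The deposited values are log2 signals per probe set that the authors made with Affymetrix Power Tools (RMA), according to the submitters' processing notes, with versions not given in the sources used here. This method subtracts background, equalises the distributions of the arrays and condenses each probe set to 1 value, which would hide any shift common to most transcripts. Values have 2 decimals and run from 3.03 to 14.99. The number of arrays limits the precision.

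Probe sets were named from the platform annotation, with symbols updated through the gene numbers of RefSeq (GRCm38.p6): 34945 had 1 gene, 932 several and 9160 none in it. The 64 control probe sets were left out. The groups were compared by moderated linear models in limma 3.58.1 (R 4.3.3; two-sided, no covariate), adjusted by the Benjamini-Hochberg method over 45037 probe sets, with a threshold of 0.05 and 4.23 total degrees of freedom per test; the script was tested on simulated data. Intervals are those of this fit. No batch is given in the sources used here. Members, lists and tests were chosen with earlier results of these data known.

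All member probe sets were reported. Of each pathway list the 2 genes with the smallest unadjusted p were named, each gene read from its brightest single-gene probe set. Alternatives were median centring, a second quantile normalization, array weights, a variance trend with robust estimation, a filter on dim probe sets, the replicate number as a block, leaving out each array, another threshold and 1 probe set per gene. A fit without the 2 arrays that stand apart and array weights estimated gene by gene were chosen after seeing the data. P-values measure the spread between these pools.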

Additional observations from a re-analysis of the deposited data

How the results depend on the processing

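Every alternative kept the direction of all member probe sets that differed at an unadjusted p of 0.05, and of Tgfb3, Bmp4 and the 2 brighter Id2 probe sets. The dimmest Id2 probe set, 1453596_at, at -0.01, measured 0.03 with median centring, 0.00 after a second quantile normalization, 0.08 with array weights, 0.05 with weights estimated gene by gene, 0.14 with the replicate block and -0.12 to 0.14 without each array in turn; the cause was not tested. Probe sets called over the whole array numbered 0 with the 5 arrays and also without each array in turn, with the replicate block, the dim filter, the variance trend, the second quantile normalization and only the 3 arrays that do not stand apart. They numbered 15 with median centring, 17 at an adjusted p of 0.10, 10 with 1 probe set per gene, 2245 with array weights and 283 with weights estimated gene by gene. Array weights gave P467L replicate 2 a weight of 34.06, against 0.15 and 0.24 for the other P467L arrays, so that fit rests mostly on 1 P467L array; under it 10 of the 18 member probe sets were called, and 5 with gene-by-gene weights. Member probe sets at an unadjusted p of 0.05 numbered 12, where 7.44% of all probe sets passed. Without P467L replicate 1 they numbered 12 (10.7% of all), without replicate 2 they numbered 10 (4.9%), and without replicate 3 they numbered 12 (9.32%). The replicate block gave 10 (8.91%). The members' count was also smaller with either non-transgenic array left out and with only the 3 arrays that do not stand apart. Those fits hold 1 non-transgenic array. Non-overlapping member probe sets numbered 14, where 11.2% of all probe sets were above and 7.61% below. They numbered 14 to 15 with a P467L array left out, but groups of fewer arrays part more easily. The share of all probe sets was not counted there. Pathway genes at an unadjusted p of 0.05 numbered 17, from 6 to 18 without each array, 10 with the replicate block, 9 with only the 3 arrays that do not stand apart, 31 with array weights and 27 with gene-by-gene weights. A non-transgenic array left alone is assumed to vary like the P467L arrays. The deviations of same-numbered arrays from their group means correlated at 0.11 for replicate 1 and 0.01 for replicate 2. The deviations of the 2 non-transgenic arrays mirror each other, so these values cannot decide whether same-numbered arrays were handled together.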
